A study of Mus musculus with 6 samples.

Results

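The matrix metalloproteinases and their tissue inhibitors, the TIMPs, were followed in cultured adult neural stem cells of the mouse treated with PluriSIn#2 or with DMSO. The 10 genes are Mmp2, Mmp3, Mmp9, Mmp12, Mmp13, Mmp14, Timp1, Timp2, Timp3 and Timp4, taken by symbol from the 24421 genes of the deposited count table, which holds all 10. They were chosen by their counts in the treated against the control libraries, so their values in this contrast are a description and carry no test. RNA was sequenced from 3 libraries of PluriSIn#2-treated cells and 3 libraries of DMSO-treated cells. All were primary wild-type neural stem cells of C57BL/6 mice at postnatal day 60, from the subventricular zone, the lining of the lateral ventricles where neurons keep being made. They were kept in EGF and FGF2, each at 20 ng/ml. The treated cells received 20 µM PluriSIn#2, which the study's design names as an inhibitor of topoisomerase IIA, for 3 days. The controls received its solvent DMSO over the same time, and the medium was renewed at 24 h. Grouping followed the titles, since the treatment field names a PluriSIn of another number for treated replicates 2 and 3. No label gives separate cultures for the replicates, and the spread behind the p-values may thus be technical.

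Matrix metalloproteinases are zinc-dependent endopeptidases that cleave collagens, other matrix proteins and proteins of the cell surface. Most are secreted as inactive precursors, in which a cysteine of the propeptide blocks the zinc until the propeptide is removed, while the membrane types are anchored at the cell surface. TIMPs are small secreted proteins that bind the active site and block it. MMP14, TIMP2 and the precursor of MMP2 also form a complex at the cell surface in which MMP2 is activated, so TIMP2 takes part in activation as well as in inhibition. In the subventricular zone, metalloproteinases are known for a part in the migration of neuroblasts.

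Of the 10 genes, 9 were higher in all PluriSIn#2 libraries than in any DMSO library, and Mmp14 overlapped between the groups. The secreted enzymes differed most, with ratios of PluriSIn#2 over DMSO in pooled read counts, scaled for library size, between 5.42 for Mmp9 and 340 for Mmp12. The 4 inhibitors differed by ratios between 1.5 for Timp4 and 3.44 for Timp2. All 10 passed the filter on low counts, and 9 had an adjusted p under 0.05 with a positive difference in edgeR's quasi-likelihood test over all 14417 tested genes. In that test 41.7% of all genes were called higher in PluriSIn#2 and 40.9% lower, and 41.8% of all genes had every PluriSIn#2 library above every DMSO library. Since the same contrast chose the members, nothing is read from their counts. Their median log2 fold change was 2.09, beside 0.01 over all tested genes. Mmp9, Mmp12 and Mmp13 had few reads in DMSO and passed the filter through the treated libraries.

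The sequences before the start sites of Mmp3, Mmp12 and Mmp13 are shown because these genes, which lie close together on chromosome 9, had the largest ratios of the members, and that of Mmp14 because its level did not differ. RefSeq start sites on GRCm38.p6, the build also called mm10, were matched for 8 of the 10 genes (Mmp3, Mmp12, Mmp13, Mmp14 and the TIMPs), with 2 for Mmp12. Each stretch holds the 250 bases before a start site, 5′ to 3′ on the plus strand, and capitals mark AP-1 and TATA motifs. The stretch of Mmp3 is chr9:7445572-7445821, that of the second start site of Mmp12 is chr9:7347124-7347373, that of Mmp13 is chr9:7272264-7272513 and that of Mmp14 is chr14:54431348-54431597.
Mmp3: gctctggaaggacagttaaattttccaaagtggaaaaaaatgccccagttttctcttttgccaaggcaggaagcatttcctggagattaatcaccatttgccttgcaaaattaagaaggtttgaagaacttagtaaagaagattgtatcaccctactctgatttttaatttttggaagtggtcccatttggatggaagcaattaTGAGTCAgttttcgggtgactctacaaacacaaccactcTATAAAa
Mmp12: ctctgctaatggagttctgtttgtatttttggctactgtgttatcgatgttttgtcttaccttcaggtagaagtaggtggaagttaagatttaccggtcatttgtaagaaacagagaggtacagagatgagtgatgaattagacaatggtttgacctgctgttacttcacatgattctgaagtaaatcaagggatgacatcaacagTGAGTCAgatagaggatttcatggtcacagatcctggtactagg
Mmp13: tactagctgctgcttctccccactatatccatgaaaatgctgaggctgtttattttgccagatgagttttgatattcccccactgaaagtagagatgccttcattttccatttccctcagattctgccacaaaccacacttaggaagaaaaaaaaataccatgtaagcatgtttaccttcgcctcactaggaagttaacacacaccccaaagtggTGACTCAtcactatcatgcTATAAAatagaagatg
Mmp14: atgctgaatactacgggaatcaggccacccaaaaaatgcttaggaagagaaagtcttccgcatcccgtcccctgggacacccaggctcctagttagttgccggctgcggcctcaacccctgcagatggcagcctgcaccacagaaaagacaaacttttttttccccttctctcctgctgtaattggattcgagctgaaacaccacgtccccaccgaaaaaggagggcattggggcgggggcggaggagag

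In these windows, extended by 50 bases after the start site, 5 motifs were searched on both strands. The AP-1 motif TGAGTCA, the binding site of Fos and Jun dimers, was found from position -46 to -40 in Mmp3, from -44 to -38 at the second start site of Mmp12, and from -35 to -29 in Mmp13, there as TGACTCA, its form on the other strand. It was in none of the windows of Mmp14 and the TIMPs, nor at the first start site of Mmp12, and 5.2% of 32851 mouse start sites in the same table had it. The TATA motif TATAAA was found from -7 to -2 in Mmp3, from -16 to -11 in Mmp13 and from 5 to 10 after the second start site of Mmp12, against 13.6% of all start sites. Both motifs stood together in 0.941% of all start sites. Since Mmp3, Mmp12 and Mmp13 were picked by their ratios and lie close together, nothing is read from these shares. The SP1 motif GGGCGG, in 35.7% of all start sites, was present in Mmp14, Timp1, Timp2 and Timp3 and in none of the windows of Mmp3, Mmp12 and Mmp13. The PEA3 motif AGGAAG was present in Mmp3, Mmp13, Mmp14, Timp1, Timp3, Timp4 and the first start site of Mmp12, against 35.4% of all start sites, and the RUNX motif TGTGGT in Mmp13 and Mmp14, against 16.8%. Matches of different motifs did not overlap. They describe letters in a window, and no binding was measured.

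Mmp3 encodes stromelysin-1, which cleaves proteoglycans, laminin and fibronectin and activates other metalloproteinase precursors. It lies on chromosome 9 from 7445822 to 7455975 on the plus strand (gene coordinates are of GRCm38, from GENCODE). Mmp3 stood at 78.3, 80.5 and 79.9 CPM (read counts scaled to a common library size by TMM) in PluriSIn#2 replicates 1, 2 and 3, against 0.672, 0.788 and 0.693 CPM in the DMSO replicates. The groups were far apart, at 79.6 ± 1.14 CPM in PluriSIn#2 and 0.718 ± 0.0615 CPM in DMSO. Such values are means ± SD (n = 3 each), here and in all that follows. The DMSO values rest on 12, 14 and 13 reads, so that level is measured coarsely in spite of its small SD. The fitted log2 fold change of Mmp3 was 6.78 (SE 0.107). The ratio of pooled CPM was 111, with a 95% interval from 81.1 to 156 that covers counting error only.

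Mmp12 encodes macrophage elastase, an enzyme that degrades elastin and is known chiefly from macrophages. It lies on chromosome 9 from 7344381 to 7369499 on the plus strand. Mmp12 stood at 33.0, 41.0 and 38.4 CPM in the treated libraries, against 0, 0.0563 and 0.267 CPM in the DMSO libraries. The treated values rest on 586, 747 and 655 reads and the DMSO values on 0, 1 and 5 reads, so the control level is known only coarsely. The ratio of 340 had a counting interval from 156 to 927. The fitted log2 fold change of Mmp12 was 8.32 (SE 0.199), the 4th highest of all tested genes, and 10.1 without DMSO replicate 3, which held 5 of the 6 control reads.

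Mmp13 encodes collagenase-3, which cleaves fibrillar collagen, and lies on chromosome 9 from 7272514 to 7283331 on the plus strand. Its level was 17.0, 17.3 and 17.9 CPM in the treated libraries, against 0.112, 0.450 and 0.587 CPM in the DMSO libraries. The treated libraries lay close together, whereas the DMSO values, from 2, 8 and 11 reads, spread widely. The fitted log2 fold change of Mmp13 was 5.47 (SE 0.194).

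The gelatinases Mmp2 and Mmp9 encode enzymes that digest denatured collagen and the type IV collagen of basement membranes. Mmp2, on chromosome 8 from 92827291 to 92853420 on the plus strand, stood at 44.9, 47.6 and 46.9 CPM in PluriSIn#2, against 4.14, 4.44 and 4.69 CPM in DMSO. Of the secreted enzymes it had the highest DMSO level, and its log2 fold change was 3.39 (SE 0.087). Mmp9, on chromosome 2 from 164940780 to 164955850 on the plus strand, was the scarcest member in the treated cells. Its level was 1.13, 1.92 and 1.11 CPM in PluriSIn#2, against 0.224, 0.281 and 0.267 CPM in DMSO, from 20, 35 and 19 reads in PluriSIn#2 and 4, 5 and 5 reads in DMSO. Treated replicate 2 stood above the other treated libraries, and the log2 fold change of Mmp9, 2.41 (SE 0.418), was 2.09 without it.

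Mmp14 encodes the first membrane-type metalloproteinase, the activator of pro-MMP2, and lies on chromosome 14 from 54431612 to 54445364 on the plus strand. It stood at 218, 211 and 221 CPM in PluriSIn#2, against 221, 217 and 213 CPM in DMSO. The groups overlapped, and the means of 217 ± 5.30 CPM in PluriSIn#2 and 217 ± 4.09 CPM in DMSO differed by less than either SD. The fitted log2 fold change was -0.01 (SE 0.029), and its sign turned with the scaling, to 0.06 with library totals in place of TMM factors. The ratio of pooled CPM was 0.997, with a counting interval from 0.971 to 1.02.

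**Figure D1:**
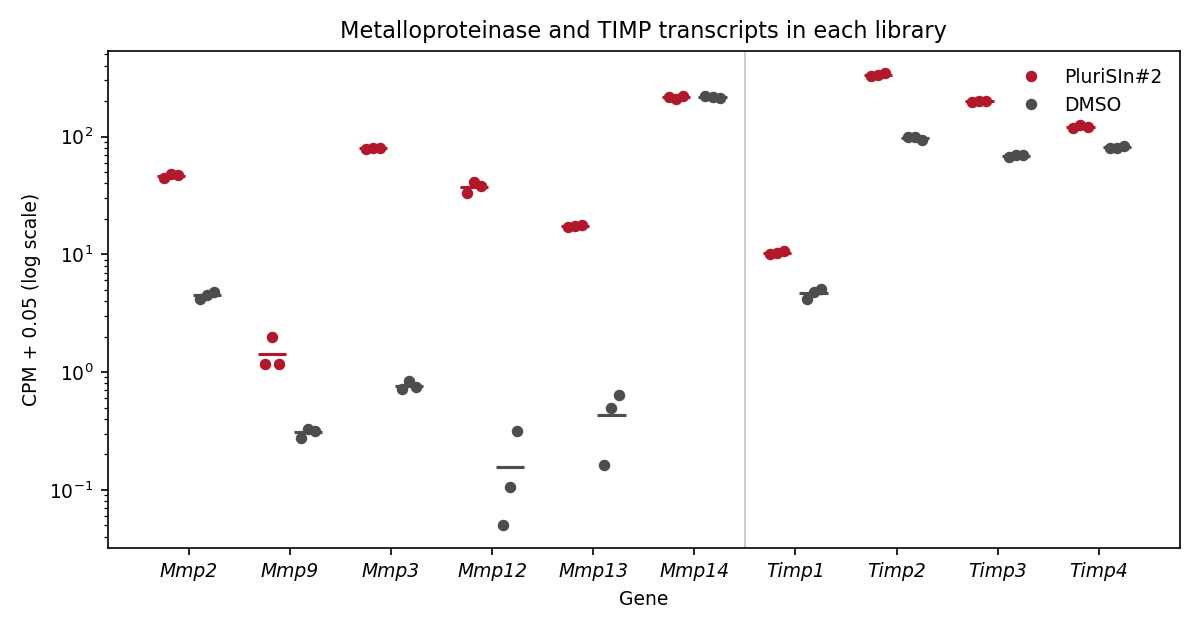
CPM plus 0.05 (log axis, so that a library without reads can be drawn) of each member in each library; points are libraries, with PluriSIn#2 left of DMSO, and short lines are group means. Mmp14 overlaps between the groups at 217 CPM, and the 9 other genes are higher in all 3 treated libraries.

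The 4 inhibitors were all higher in the treated libraries, by far less than the secreted enzymes. Timp2, from 118301069 to 118355740 on the minus strand of chromosome 11, stood at 328, 331 and 345 CPM in the treated libraries, against 98.3, 99.5 and 94.3 CPM in the DMSO libraries, with a log2 fold change of 1.78 (SE 0.031). Timp3 encodes the inhibitor that stays bound to matrix and also blocks ADAM17, the sheddase of tumour necrosis factor, and it lies on chromosome 10 from 86300372 to 86349506 on the plus strand. Its values were 199, 201 and 201 CPM in PluriSIn#2, against 67.0, 69.6 and 70.0 CPM in DMSO, with a log2 fold change of 1.54 (SE 0.035). For both inhibitors the groups stood apart by many times their SD.

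Timp1, an inhibitor of most secreted metalloproteinases that is known to be induced in reactive astrocytes, lies on the X chromosome from 20870166 to 20874735 on the plus strand. Its level was 10.04, 10.1 and 10.7 CPM in PluriSIn#2, against 4.09, 4.73 and 5.01 CPM in DMSO. Timp4, an inhibitor found mainly in brain and heart, lies on the minus strand of chromosome 6, from 115241892 to 115252205. It stood at 118.0, 127 and 120 CPM in PluriSIn#2, against 79.8, 79.8 and 83.2 CPM in DMSO. Neither gene's groups overlapped. The log2 fold change was 1.16 (SE 0.127) for Timp1 and 0.59 (SE 0.038) for Timp4, the smallest of the 9 higher members.

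Timp1, Timp3 and Timp4 each lie inside a synapsin gene, on its opposite strand, and whether counting used strand was, likewise, not given in the sources used here. Syn1, around Timp1, was not called, at 18.8 ± 0.304 CPM in PluriSIn#2 and 19.9 ± 2.40 CPM in DMSO (edgeR adjusted p = 0.336). Syn3, around Timp3, rose slightly, at 9.20 ± 0.346 CPM in PluriSIn#2 and 7.69 ± 0.161 CPM in DMSO (log2 fold change 0.26, SE 0.115, edgeR adjusted p = 0.0328). This call was lost in 6 of 13 alternatives, among them DESeq2 and the fits without replicate 2 or 3 of either group, with an adjusted p of up to 0.269. Syn2, around Timp4, rose by about as little, at 49.8 ± 2.46 CPM in PluriSIn#2 and 41.8 ± 1.65 CPM in DMSO (log2 fold change 0.25, SE 0.053, edgeR adjusted p = 1.35e-05). Exons of Syn2 and Syn3 overlap those of the inhibitors, so without strand their reads cannot be told apart there. Exons of Mmp12 overlap those of Mmp1b on the other strand in the same way, and Mmp1b had 22 reads, all in the treated libraries.

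To compare genes with each other, levels are given per length, as the authors' FPKM (fragment counts scaled to gene length and library depth). In PluriSIn#2, Timp2 led at 92.8 ± 2.43 FPKM, followed by Timp4 at 86.2 ± 3.13 FPKM and Mmp14 at 83.7 ± 2.10 FPKM. The libraries of Timp4 and Mmp14 overlapped, so these neighbours do not differ beyond their spread. Mmp3 came next at 44.4 ± 0.588 FPKM and Timp3 at 43.0 ± 0.264 FPKM, then Mmp2 at 15.3 ± 0.451 FPKM. Timp1 at 11.6 ± 0.409 FPKM and Mmp12 at 10.4 ± 1.11 FPKM overlapped. Mmp13 at 6.53 ± 0.164 FPKM and Mmp9 at 0.439 ± 0.145 FPKM closed the order.

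In DMSO, Mmp14 led at 80.1 ± 1.58 FPKM, ahead of Timp4 at 54.7 ± 1.25 FPKM, Timp2 at 25.7 ± 0.754 FPKM and Timp3 at 14.1 ± 0.323 FPKM. Timp1 followed at 4.96 ± 0.505 FPKM and Mmp2 at 1.39 ± 0.0851 FPKM. The other secreted enzymes were at the bottom, with means of 0.382 for Mmp3, 0.137 for Mmp13, 0.0889 for Mmp9 and 0.0285 FPKM for Mmp12, and the libraries of Mmp13 and Mmp9 overlapped. The order depends on the gene lengths behind the FPKM. With GENCODE exonic lengths, Timp4 stood at 21.1 on the same scale in PluriSIn#2 and 13.4 in DMSO, below Timp2 in both groups (88.0 in PluriSIn#2 and 24.4 in DMSO), and Mmp3 at 45.3 stood above Mmp14 at 37.2 in PluriSIn#2.

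The make-up of the 10 transcripts differed between the groups in every library. The 5 secreted enzymes together held 74.5, 79.1 and 77.8 FPKM in PluriSIn#2 replicates 1, 2 and 3, against 1.79, 2.10 and 2.20 FPKM in the DMSO replicates. That was 19.5% ± 0.370 of the FPKM of the 10 genes in PluriSIn#2 and 1.12% ± 0.119 in DMSO. Among the secreted enzymes Mmp3 led in PluriSIn#2 and Mmp2 in DMSO. Mmp3 held 57.6% ± 1.001 of their FPKM in PluriSIn#2 and 18.9% ± 1.90 in DMSO, while Mmp2 held 19.9% ± 0.0200 in PluriSIn#2 and 68.9% ± 3.57 in DMSO. The 4 inhibitors summed to 229, 236.0 and 236 FPKM in PluriSIn#2, against 98.1, 99.7 and 101 FPKM in DMSO. Their share of the 10 genes was 59.2% ± 0.263 in PluriSIn#2 and 54.8% ± 0.743 in DMSO, and that of Mmp14 was 21.2% ± 0.624 in PluriSIn#2 and 44.1% ± 0.858 in DMSO. With GENCODE exonic lengths the order of the inhibitors' share turned, at 57.3% in PluriSIn#2 and 57.7% in DMSO. The secreted enzymes then held 28.1% in PluriSIn#2 and 2.15% in DMSO, and Mmp14 held 14.6% in PluriSIn#2 and 40.2% in DMSO.

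**Figure D2:**
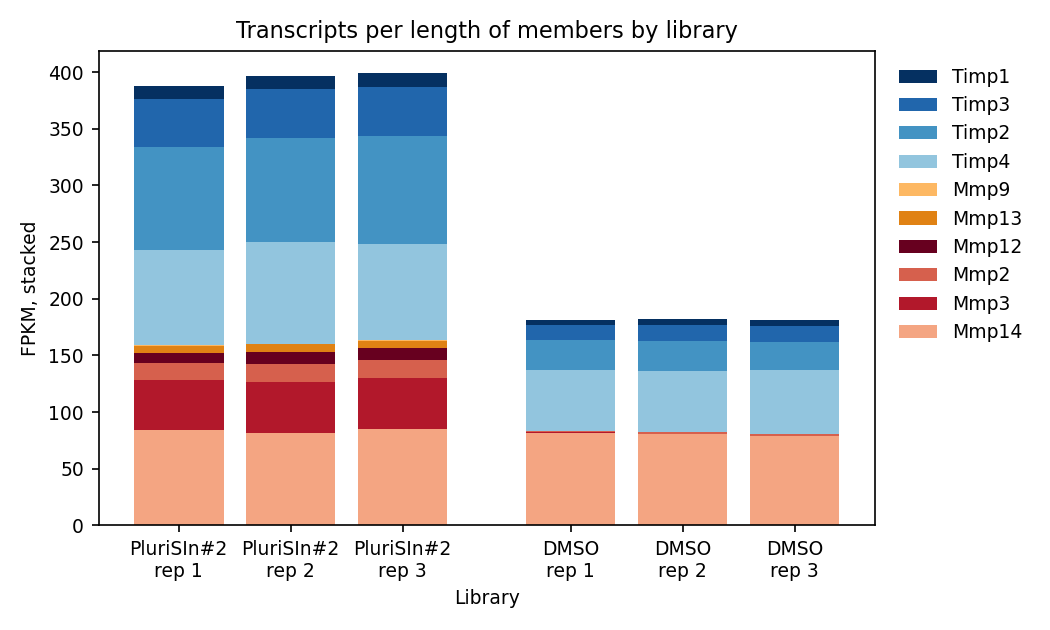
Authors' FPKM of the 10 members (y axis) stacked in each library (x axis), with Mmp14 at the bottom, the secreted enzymes above it and the inhibitors in blue on top. The secreted enzymes together reach 77.1 ± 2.35 FPKM in PluriSIn#2 and 2.03 ± 0.216 FPKM in DMSO, and the inhibitors 234 ± 3.92 FPKM in PluriSIn#2 and 99.5 ± 1.33 FPKM in DMSO.

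Per unit of inhibitor transcript, the secreted enzymes stood at 0.330 ± 0.00489 in PluriSIn#2 and 0.0204 ± 0.00192 in DMSO. Timp2 over Mmp14, partners in the activation of MMP2, was 1.11 ± 0.0244 in PluriSIn#2 and 0.321 ± 0.00609 in DMSO. With GENCODE exonic lengths these ratios kept their order but not their size, at 0.491 in PluriSIn#2 and 0.0373 in DMSO for secreted enzymes over inhibitors and 2.37 in PluriSIn#2 and 0.685 in DMSO for Timp2 over Mmp14. Timp2 over Mmp2 went the other way, at 6.05 ± 0.188 in PluriSIn#2 and 18.5 ± 1.54 in DMSO. Timp4 over Timp2 was 0.929 ± 0.0459 in PluriSIn#2 and 2.13 ± 0.112 in DMSO, or 0.24 in PluriSIn#2 and 0.549 in DMSO with GENCODE lengths. For all 6 enzymes over the 4 inhibitors the ratio was 0.689 ± 0.00747 in PluriSIn#2 and 0.826 ± 0.0248 in DMSO, an order that turned with GENCODE exonic lengths (0.745 in PluriSIn#2 and 0.734 in DMSO). These are ratios of transcripts, and no protein or activity was measured.

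The other metalloproteinases moved in both directions. The count table holds 17 further Mmp genes. Of the 9 tested, 6 rose and 3 fell around a median log2 fold change of 0.91, beside 82.6% of all genes called in either direction. Of the 9, Mmp10 and Mmp23 passed the filter through the treated libraries alone. The most abundant was Mmp15, which encodes the second membrane type. It fell to 274, 279 and 274 CPM in PluriSIn#2, against 864, 841 and 833 CPM in DMSO (log2 fold change -1.62, SE 0.023, edgeR adjusted p = 3.83e-74). The membrane types Mmp16 (log2 fold change -1.28, SE 0.093, edgeR adjusted p = 1.30e-22) and Mmp17 (-1.42, SE 0.111, edgeR adjusted p = 5.43e-21) also fell.

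A membrane type that rose was Mmp24, at 5.64 ± 0.658 CPM in PluriSIn#2 and 3.30 ± 0.375 CPM in DMSO (log2 fold change 0.78, SE 0.162, edgeR adjusted p = 1.02e-05). Mmp25, with 14 reads in PluriSIn#2 and 26 in DMSO, and Mmp21, with 2 reads in PluriSIn#2 and 8 in DMSO, were not tested. Mmp10, which encodes stromelysin-2, had the highest fold change. It stood at 4.96, 7.40 and 6.03 CPM in PluriSIn#2, against 0.168, 0.394 and 0.427 CPM in DMSO (log2 fold change 4.18, SE 0.272). No p is given for Mmp10, which had 3, 7 and 8 reads in DMSO and entered the test only by its treated libraries. The secreted enzymes Mmp11 (log2 fold change 2.25), Mmp19 (2.20) and Mmp28 (1.93) rose as well. Mmp23 was higher, with 61 reads in PluriSIn#2 and 33 in DMSO (0.91). Like Mmp10 it entered the test only by its treated libraries, so no p is given. Its call was lost in 4 of 12 alternatives, namely with DESeq2, without PluriSIn#2 replicate 2, without DMSO replicate 2 and with treated replicate 1 alone. Over the 12 its log2 fold change lay between 0.16 and 1.29.

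Mmp15 weighed heavily in the sum over all metalloproteinases, at 64.7 ± 0.614 FPKM in PluriSIn#2 and 189 ± 3.77 FPKM in DMSO. Over Mmp14 it stood at 0.773 ± 0.0269 in PluriSIn#2 and 2.36 ± 0.0131 in DMSO. The 21 metalloproteinases in the FPKM table over the 4 inhibitors stood at 1.04 ± 0.00800 in PluriSIn#2 and 2.85 ± 0.0891 in DMSO, the reverse order of the secreted members.

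The cluster on chromosome 9 holds 10 Mmp genes over 427 kb, from 7272514 to 7699585, in the order Mmp13, Mmp12, Mmp1b, Mmp3, Mmp1a, Mmp10, Mmp8, Mmp27, Mmp20 and Mmp7. Together they held 7513 reads in the treated libraries and 84 in the DMSO libraries. Most of these reads came from Mmp3, Mmp12 and Mmp13, members chosen on this contrast, so nothing is read from the sums. Mmp3 held 4223 reads in PluriSIn#2 and 39 in DMSO, Mmp12 1988 and 6, and Mmp13 922 and 21. Of the other genes, Mmp10 held 326 reads in PluriSIn#2 and 18 in DMSO. Reads were found for 8 of the 10 in PluriSIn#2 and for 4 in DMSO. Mmp1a and Mmp1b, the mouse counterparts of the human collagenase gene MMP1, had 22 reads each in PluriSIn#2 and none in DMSO, at least 7.52-fold higher when DMSO is set to a floor of 3 reads over its libraries. Mmp8 had 6 reads and Mmp27 had 4, all in PluriSIn#2, and Mmp20 and Mmp7 had none in any library.

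The genes that border the cluster had mixed patterns. Dcun1d5, next to Mmp13, fell slightly, to 54.7 ± 0.590 CPM in PluriSIn#2, against 69.6 ± 4.95 CPM in DMSO (log2 fold change -0.35, edgeR adjusted p = 2.23e-10). Tmem123, next to Mmp7, fell to 34.5 ± 0.647 CPM in PluriSIn#2, against 104 ± 5.43 CPM in DMSO (-1.60, edgeR adjusted p = 1.45e-49). Beyond it Birc2 and Yap1 were not called, with 31.5 CPM for Birc2 and 158 CPM for Yap1 in PluriSIn#2, against 30.3 and 159 CPM in DMSO. Birc3 was higher, at 1.94 ± 0.271 CPM in PluriSIn#2 and 0.784 ± 0.403 CPM in DMSO (log2 fold change 1.29). Its levels rest on 32, 41 and 30 reads in PluriSIn#2 and 16, 6 and 21 reads in DMSO.

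**Figure D3:**
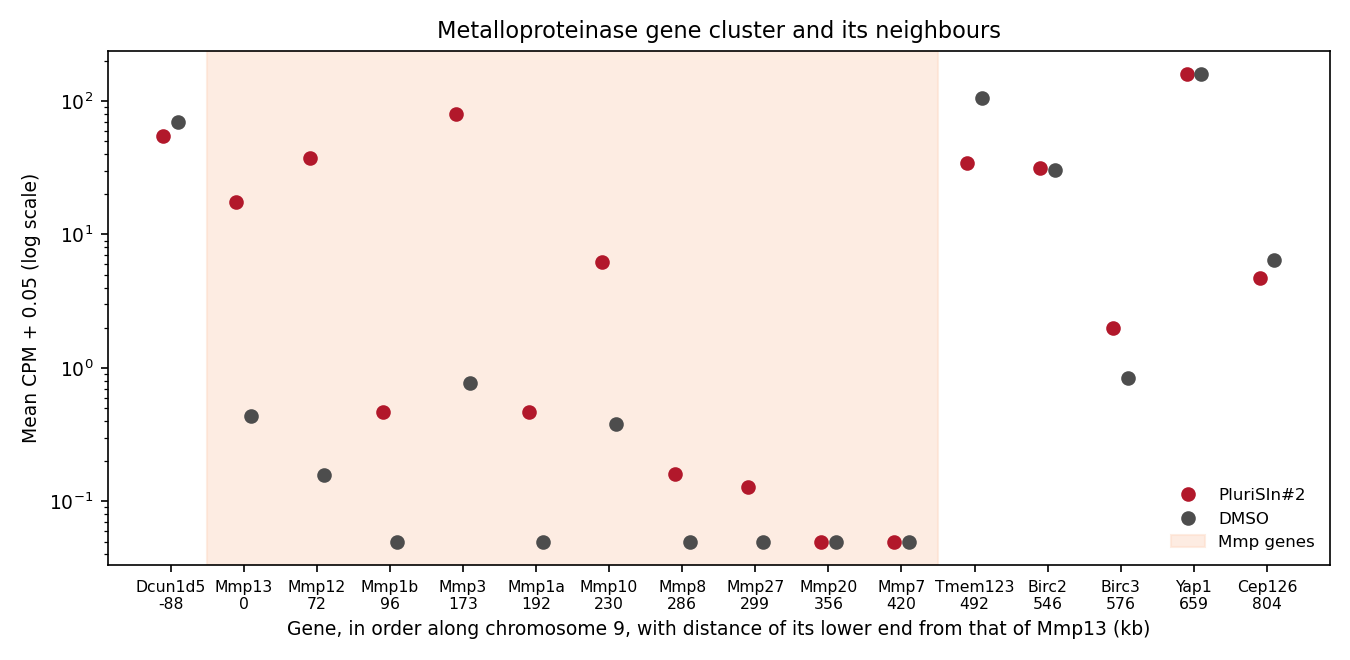
Mean CPM plus 0.05 (log axis) in PluriSIn#2 (left point of each pair) and DMSO (right point) for genes in their order along chromosome 9, with the distance of each gene from Mmp13 in kb under its name and the Mmp genes shaded. Mmp3, Mmp12, Mmp13 and Mmp10 stand well above DMSO in PluriSIn#2, Mmp20 and Mmp7 have no reads, and the points of Yap1 coincide at 158 CPM in PluriSIn#2 and 159 CPM in DMSO.

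Genes whose products activate, dock or clear metalloproteinases were mostly higher. Of 24 tested genes of this list 18 rose, 5 fell and 1, the docking receptor Cd44, was not called, with a median log2 fold change of 1.26, beside 41.7% of all tested genes higher and 40.9% lower. Of the 24, 2 passed the filter through the treated libraries alone, Cldn1 among them. Plau, which encodes urokinase, an activator of plasminogen that in turn activates metalloproteinase precursors, rose to 29.4, 26.7 and 30.0 CPM in PluriSIn#2, against 2.52, 2.64 and 2.40 CPM in DMSO (3.51, SE 0.112, edgeR adjusted p = 8.28e-47). Its receptor gene Plaur rose too (1.29), while Plat, the tissue-type activator, fell to 145 ± 5.80 CPM in PluriSIn#2, against 228 ± 6.76 CPM in DMSO (-0.65, edgeR adjusted p = 1.93e-34). Plg, the gene of plasminogen itself, had 2 reads in PluriSIn#2 and 1 in DMSO.

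Serpine2, whose product protease nexin-1 inhibits both plasminogen activators, was the most abundant gene of the list that rose, at 3313 ± 31.7 CPM in PluriSIn#2 and 1308 ± 24.7 CPM in DMSO (1.34, edgeR adjusted p = 1.95e-76). Cldn1, a tight-junction gene, had the highest fold change (3.89), with 179 reads in PluriSIn#2 and 12 in DMSO. Furin (0.55), the convertase that activates MMP14, and Lrp1 (1.23), the receptor that clears metalloproteinases and their TIMP complexes, rose, and the convertase gene Pcsk5 (-1.15) fell. Reck, a membrane-anchored inhibitor of MMP2, MMP9 and MMP14, fell slightly, to 8.69 ± 0.893 CPM in PluriSIn#2, against 10.6 ± 1.14 CPM in DMSO (-0.28, edgeR adjusted p = 0.0176). That call was lost in 4 of 13 alternatives, namely with DESeq2, with library totals, without PluriSIn#2 replicate 1 and without DMSO replicate 2, with an adjusted p of up to 0.129. Plau, Plaur, Plg, Cd44, Furin, Lrp1 and Reck were picked for description after their values were seen.

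The related ADAM and ADAMTS genes, whose products include membrane sheddases and secreted enzymes of which TIMP3 blocks several, were mostly lower. Of 27 tested genes 7 rose, 17 fell and 3 were not called, and the median log2 fold change was -0.81, beside 41.7% of all tested genes higher and 40.9% lower. Of the 27, Adam33 passed the filter through the treated libraries alone and Adamts16 through the DMSO libraries alone. Adam12 fell to 116, 121 and 120 CPM in PluriSIn#2, against 464, 464 and 453 CPM in DMSO (-1.95, edgeR adjusted p = 3.67e-74). Adam19 fell furthest, to 12.1 ± 0.790 CPM in PluriSIn#2, against 102 ± 1.92 CPM in DMSO (-3.07, edgeR adjusted p = 1.52e-64). The sheddases Adam17 (-0.18) and Adam10 (-0.83), picked after their values were seen, fell as well. Adamts1 (0.18), the most abundant riser, and Adamts15 (3.27), at 9.81 ± 0.767 CPM in PluriSIn#2 and 1.02 ± 0.346 CPM in DMSO, were among the 7 that rose.

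Matrix proteins that metalloproteinases cleave were mostly higher. Of 26 tested genes 18 rose, 5 fell and 3 were not called, with a median log2 fold change of 0.94, beside 41.7% of all tested genes higher and 40.9% lower. Of the 26, Col1a2, Col3a1, Dcn and Vtn passed the filter through the treated libraries alone and Acan through the DMSO libraries alone. Col4a1 (2.36) and Col4a2 (3.57), the type IV collagen chains cut by gelatinases, rose. Bcan, a brain proteoglycan, was the most abundant riser, at 1630 ± 13.99 CPM in PluriSIn#2 and 1048 ± 43.2 CPM in DMSO (0.64, edgeR adjusted p = 3.40e-47). Dcn, the gene of the small proteoglycan decorin, had the highest fold change (6.86), with 832 reads in PluriSIn#2 and 7 in DMSO. Tnc, the gene of tenascin-C, fell furthest, to 341 ± 4.12 CPM in PluriSIn#2, against 1501 ± 6.17 CPM in DMSO (-2.14, edgeR adjusted p = 1.35e-86), and Eln (-2.12), the gene of elastin, fell too. The list shares 5 genes, among them Dcn, with the fibroblast and mural cell markers given below. Col4a1, Col4a2 and Eln were picked after their values were seen.

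Transcription factors known from metalloproteinase promoters moved in both directions. Of 26 tested genes 14 rose, 9 fell and 3 were not called, with a median log2 fold change of 0.23. Of the 26, 88.5% were called, near the 82.6% of all tested genes. Fos and Jun genes, whose dimers bind the AP-1 motif shown above, were among those that rose. Any link between these genes and the members was not tested. Fosb had the highest fold change, at 79.1, 76.3 and 76.5 CPM in PluriSIn#2, against 12.7, 9.39 and 12.1 CPM in DMSO (2.76, SE 0.065, edgeR adjusted p = 5.86e-57). Fos stood at 255, 262 and 258 CPM in PluriSIn#2, against 71.5, 74.8 and 76.8 CPM in DMSO (1.80, edgeR adjusted p = 2.32e-65). For both genes the treated libraries lay several times above the controls. Fosl1 (2.27), Junb (1.17), Jun (0.46), Jund (0.39) and Fosl2 (0.19) rose as well. Of the PEA3 factors, Etv4 (0.58) rose and Etv1 (-0.89) fell. Etv5 fell slightly (-0.06, edgeR adjusted p = 0.0109), a call lost in 4 of 13 alternatives, namely with library totals, without PluriSIn#2 replicate 2, without DMSO replicate 3 and with treated replicate 1 alone, with an adjusted p of up to 0.698 and a fold change between -0.08 and 0.01. Runx2 (1.18), a regulator of Mmp13 in bone, rose, while Ets1 (-1.92), Sp1 (-0.95) and Egr1 (-0.31) fell. All but Fosb, Etv4, Ets1 and Egr1 were picked after their values were seen.

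**Figure D4:**
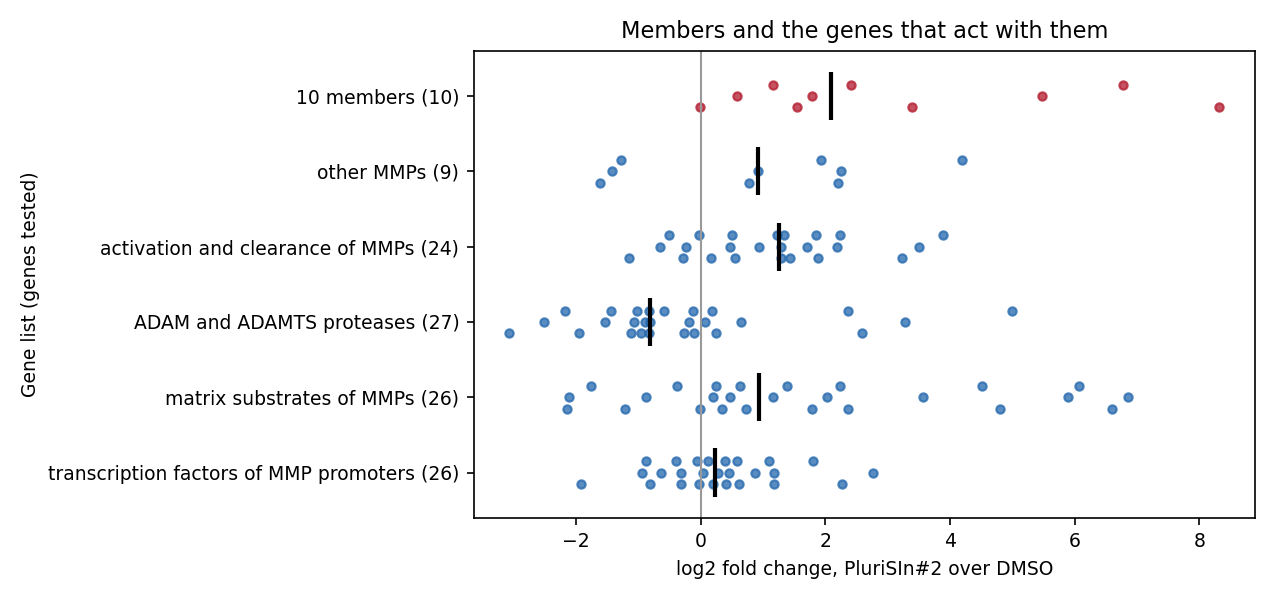
Fitted log2 fold change of PluriSIn#2 over DMSO (x axis) for each tested gene of the members and of the lists that act with them (rows, with the number tested); points are genes and black bars are medians. The median is 2.09 for the members, -0.81 for the ADAM and ADAMTS genes and between 0.23 and 1.26 for the other lists.

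Most tested markers of other cell types were higher in the same libraries, and their part in the members' values was not tested. Of 20 tested macrophage and microglia markers 19 rose, none fell and P2ry12 was not called. Over all tested genes, 41.7% were higher and 40.9% lower. Of the 20 markers, 15 passed the filter through the treated libraries alone. The summed level of the 22 markers was between 274 and 276 CPM in the PluriSIn#2 libraries and between 27.0 and 28.8 CPM in the DMSO libraries. Lyz2, a lysozyme gene and the most abundant of them, stood at 79.7, 83.0 and 82.5 CPM in PluriSIn#2, against 1.18, 1.012 and 1.60 CPM in DMSO. Trem2 was the marker with no read in DMSO, against 543 reads in PluriSIn#2. Aif1, with 30 reads in PluriSIn#2 and 6 in DMSO, and Cx3cr1, with 22 reads in PluriSIn#2 and 5 in DMSO, were too low to test.

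Fibroblasts and vessel cells are known sources of Mmp2, Mmp3 and Timp1. Of 14 tested fibroblast and mural cell markers 10 rose, 3 fell and Acta2 was not called. The shares over all tested genes were 41.7% higher and 40.9% lower. Of the 14 markers, 5 passed the filter through the treated libraries alone. The 19 markers summed to between 357 and 360 CPM in PluriSIn#2 and between 288.0 and 301 CPM in DMSO. The 3 that fell made up most of the DMSO sum. Cspg4, the most abundant, stood at 86.1 CPM in PluriSIn#2 and 149 CPM in DMSO, Pdgfra at 4.91 CPM in PluriSIn#2 and 56.9 CPM in DMSO, and Fbln1 at 18.4 CPM in PluriSIn#2 and 51.5 CPM in DMSO. Cspg4 and Pdgfra are also genes of oligodendrocyte precursors. Col3a1 was at 61.5 CPM in PluriSIn#2 and 0.629 CPM in DMSO. Pdgfra, Fbln1 and Col3a1 were picked after their values were seen. Of 12 tested endothelial markers 10 rose, none fell and 2 were not called, beside 41.7% of all tested genes higher and 40.9% lower. Those not called were Tek (log2 fold change -0.32) and Egfl7 (-0.47). Of the 12 markers, 4 passed through the treated libraries alone. The 16 markers summed to between 51.8 and 54.4 CPM in PluriSIn#2 and between 10.5 and 12.8 CPM in DMSO. Cdh5 was the most abundant (6.93), and Sox17 had 15 reads in PluriSIn#2 and none in DMSO. In bulk RNA, a different share of cells of a type and a different RNA level per cell cannot be told apart.

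Genes of neural stem cells and astrocytes were abundant in both groups. All 18 of these markers were tested, of which 11 rose and 7 fell, beside 41.7% of all tested genes higher and 40.9% lower. The 18 markers summed to between 13270 and 13350 CPM in PluriSIn#2 and between 10600 and 10720 CPM in DMSO. Vim, the most abundant, stood at 3059 ± 30.2 CPM in PluriSIn#2 and 2667 ± 30.5 CPM in DMSO. Sox2, a defining factor of neural stem cells, stood at 32.7 ± 0.341 CPM in PluriSIn#2 and 49.0 ± 2.31 CPM in DMSO. It was among the 7 that fell and was picked after its value was seen. Libraries held between 16670962 and 19241869 counts.

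For each member averaging at least 1 CPM, the genes whose log2 CPM, centred on its mean, ran closest to it over the 6 libraries were found by the root mean square distance on the log2 scale. With 6 libraries in a pair of groups and close replicates, this likeness mostly reflects the size of the difference between the groups. The closest gene to Mmp3 was Trem2, a receptor of microglia and macrophages, at a distance of 0.0930, followed by the collagen gene Col3a1 at 0.217. Mmp12 was closest to Ttr, the gene of transthyretin, at 0.409, and then to Trem2. Mmp13 was closest to C3ar1 (0.292), a complement receptor gene, and Slc11a1 (0.307), a metal transporter gene of phagocytes. Since Trem2 had no read in DMSO, its distances depend on the prior count, and its level in PluriSIn#2 was at least 186-fold higher than 3 reads over the DMSO libraries would give.

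The nearest genes of the other members lay at smaller distances. Mmp2 was closest to Ppp2r2c (0.0612), a phosphatase subunit gene, and Pla2g7 (0.0668), a lipid hydrolase gene. Timp1 was closest to Dnajc6 (0.0199) and Lix1 (0.0411), and Timp2 to the laminin chain gene Lamb1 (0.0293) and to Cend1 (0.0318). Timp3 was closest to Htra1 (0.0122), a secreted serine protease gene, and Tspan7 (0.0195), and Timp4 to Tmem132b (0.0110) and the lysosomal activator gene Gm2a (0.0202). These neighbours are ordered by likeness alone. Mmp14 ran closest to the kinase genes Mapk3 (0.0117) and Map2k2 (0.0135), whose log2 fold changes of -0.02 each lay near 0 like its own.

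Only treated replicate 1 has both its title and its treatment field naming PluriSIn#2. With it alone against the 3 DMSO libraries, where the spread comes from DMSO only and the lone sample is assumed to vary alike, the log2 fold changes were 6.76 for Mmp3, 8.14 for Mmp12, 5.43 for Mmp13, 3.34 for Mmp2 and 2.10 for Mmp9. For the inhibitors they were 1.12 for Timp1, 1.75 for Timp2, 1.53 for Timp3 and 0.54 for Timp4. In the authors' deposited table the log2 fold changes were 8.40 for Mmp12, 6.79 for Mmp3, 1.78 for Timp2 and -0.01 for Mmp14.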

How the data were processed

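The tools STAR, HTSeq and DESeq and the build mm10 were used, per the submitters' processing notes. Their versions, the annotation and any strand setting were not given in the sources used here. Raw counts per gene symbol make up the deposited count table. The deposited FPKM table gives values that the authors scaled to gene length and depth, and the authors' log2 fold changes, and 25 of its gene names had turned into dates and were left out. The counts were tested with edgeR 4.0.16 in R 4.3.3 (filterByExpr, TMM, quasi-likelihood F test, two-sided, all 6 libraries, Benjamini-Hochberg adjustment over 14417 genes, threshold 0.05), and with DESeq2 1.42.0 as an alternative. No library was a copy of another (chi-square per degree of freedom from 1.57 to 2.27 within groups). Libraries held 16670962 to 19241869 counts, so genes with few reads are measured coarsely. Intervals of 95% are exact (binomial on the split of the reads) and, like floors, cover counting error only. Genes were placed with GENCODE M21, and start site sequences are RefSeq's.

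The members and lists were chosen with earlier results of these data known. Named by rule were all members and other Mmp genes, the most abundant and most changed risers and fallers of each list (with a mean of at least 1 CPM for change), the most abundant marker of each cell type, and for each member the 2 nearest genes that averaged 5 CPM or more (log2 CPM with a prior count of 2, provisional names left out). Alternatives were DESeq2, its size factors, library totals, other filters, a replicate block, each library left out and treated replicate 1 alone.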

Additional observations from a re-analysis of the deposited data

How the results depend on the processing

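All 143 alternative counts of called genes lay within 1.5 times the count reported, over DESeq2, its size factors, library totals, other filters, the replicate block, each library left out and treated replicate 1 alone. In the last the spread comes from the DMSO libraries only, and the lone treated sample is assumed to vary like them. With the replicate number as a block, 5984 genes were higher in PluriSIn#2 and 5867 lower, against 6015 and 5900 without it. Same-numbered libraries did not deviate together over all tested genes (correlations from -0.0025 to 0.0293). A shared culture or batch that touched few genes would not show in these correlations. Of 130 alternative fold changes of members, 125 moved by less than the spread between replicates, and the 9 members other than Mmp14 kept their sign in all 13 alternatives each. The 5 that moved were Mmp12 without DMSO replicate 3 (10.1) and, with library totals, Mmp14 (0.0642), Timp2 (1.85), Timp3 (1.61) and Timp4 (0.655). Library totals moved the median of all genes to 0.0835.

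Ratios per length were recomputed by alternatives chosen after seeing the data. With GENCODE exonic lengths, PluriSIn#2 and DMSO stood at 0.491 and 0.0373 for secreted enzymes over inhibitors, at 0.745 and 0.734 for the 6 enzymes over inhibitors, at 1.2 and 3.87 for the 21 metalloproteinases over inhibitors, and at 2.37 and 0.685 for Timp2 over Mmp14. This alternative differs only in the lengths, such as 5894 bases in place of 1442 for Timp4. With treated replicate 1 alone, Timp2 over Mmp14 was 1.08 and the 21 metalloproteinases over inhibitors 1.05. Depth limits the DMSO levels of Mmp3, Mmp9, Mmp12 and Mmp13, which rest on few reads.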

Other observations

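The FPKM and count tables gave nearly the same gene length in every library with reads for each member except Mmp9. At the length of 3238 bases that the treated libraries gave for Mmp9, the FPKM of DMSO replicates 1, 2 and 3 correspond to 5, 6 and 5 reads, whereas the count table lists 4, 5 and 5.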
